A study of Homo sapiens with 24 samples.

Results

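The proteasome genes were taken as the protein-coding genes whose symbol starts with PSM, then a letter from A to G and a number. This rule found 50 of the 58721 genes in the count files of 24 RNA-seq libraries of A549, a human cell line that was set up from a lung adenocarcinoma. The study asked which genes depend on MYBL2 and FOXM1, transcription factors of the cell cycle, and what the small molecule FDI-6, described as an inhibitor of FOXM1, does to the same cells. The siMYBL2 and siFOXM1 groups (4 libraries each) received 25 nM of siRNAs against MYBL2 or FOXM1. Both were compared with the same siControl group (4 libraries, scrambled siRNA). Cells given siRNAs against both genes together (siBoth) and their own scrambled control (siControl_Both) had 3 libraries each. The siRNA concentration of siControl, siBoth and siControl_Both was also given as 25 nM. The FDI6 group was treated with 20 μM FDI-6 for 24 h and compared with control_FDI6 (3 libraries each), which the study calls DMSO where it lists its comparisons. All groups were made from a single established line, and siRNA lowers a transcript without removing its gene.

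The proteasome is the protease complex that degrades proteins tagged with ubiquitin. Its barrel is built from alpha rings, which gate the entrance, and beta rings, which hold the cutting sites, and a regulatory cap with a ring of ATPases recognises, unfolds and feeds the substrates. Cells exposed to interferon replace the cutting subunits PSMB6, PSMB7 and PSMB5 with PSMB9, PSMB10 and PSMB8, which makes the immunoproteasome, and add the PSME1 and PSME2 activator ring. Dedicated chaperones (PSMG1 to PSMG4 for the barrel, PSMD5, PSMD9 and PSMD10 for the cap) help with assembly and are not part of the finished particle. The members were sorted into these roles from general knowledge. They hold 8 alpha ring genes, 7 constitutive and 4 inducible beta genes, 6 cap ATPases, 11 other cap subunits, 3 cap chaperones, 4 barrel chaperones, 4 activators and the inhibitor PSMF1. PSMC3IP, a cofactor of meiotic recombination, matched the symbol rule without being a proteasome component, and PSME3IP1 was left without a role.

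Between 16487394 and 30140550 read pairs per library were counted on genes, and the FDI6 libraries were the shallowest at 16487394 to 17741253. The labels held in the targeted genes. MYBL2 was at 6.39 ± 1.88 CPM (CPM are counts scaled to a common library size, mean ± SD) in siMYBL2 against 154 ± 18.9 CPM in siControl, and FOXM1 was at 12.2 ± 1.3 CPM in siFOXM1 against 126 ± 13 CPM (n = 4 each). Both were at 8.55 ± 2.02 and 13.3 ± 2.65 CPM in siBoth (n = 3). FOXM1 was also lower in siMYBL2 (75.9 ± 14 CPM) and stood at 100 ± 10.6 CPM in FDI6 against 129 ± 2.91 CPM in control_FDI6. The 5 epithelial markers were all expressed, with summed levels of 3790 to 10535 CPM, while of 5 immune markers CD14 alone passed 1 CPM. In bulk RNA, fewer cells of a type and less RNA per cell cannot be told apart. Nothing in the labels says that replicates came from separate cultures, although the methods call them biological replicates. The p-values measure the spread between these libraries.

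Proteasome genes made up a small part of the RNA. Their counts together were 0.612% ± 0.0283 (SD, n = 4) of all gene counts in siControl, 0.627% ± 0.0318 (n = 3) in siControl_Both and 0.694% ± 0.0085 (n = 3) in control_FDI6. PSMA8, the testis form of an alpha subunit, had 0 counts in every library, which allows up to 3 per library for counting error alone, and PSMB11, the thymus form of a beta subunit, had at most 1 count, which leaves 48 of 50 members tested in each comparison. Per kilobase of the canonical transcript, the siControl level was highest for PSMA7 at 294 ± 15.6 CPM per kb. The constitutive beta genes PSMB3, PSMB6, PSMB4 and PSMB7 stood at 203 ± 3.6, 189 ± 1.82, 184 ± 6.86 and 177 ± 18 CPM per kb, the last of which overlaps its neighbours within its SD.

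The cap ATPases ranged from 18.7 ± 1.57 CPM per kb for PSMC1 to 197 ± 24.1 for PSMC4, and the other cap subunits from 38.4 ± 3.78 for PSMD12 to 177 ± 9.17 for PSMD8. The barrel chaperones lay between 14.6 ± 0.937 CPM per kb (PSMG4) and 34.4 ± 1.59 (PSMG2). The inducible beta genes were expressed with no interferon among the described treatments, but at far lower levels than the subunits they replace. PSMB8 stood at 14.9 ± 1.2 CPM per kb against 140 ± 4.01 for PSMB5, PSMB9 at 7.62 ± 1.44 against 189 ± 1.82 for PSMB6, and PSMB10 at 3.44 ± 0.653 against 177 ± 18 for PSMB7 (n = 4). PSMA2, PSMD9, PSMA6 and PSMA1 were counted at 1.8 to 9.97 CPM per kb. Other genes annotated on the same strand overlap 100% of the canonical transcript of PSMA2, 81.4% of PSMA6, 67.0% of PSMA1, 56.1% of PSMB10 and 28.8% of PSMD9. Since pairs that fit several genes are not counted, the levels of these members are lower limits.

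The share of all gene counts on the 50 members overlapped between the groups in the knockdowns and did not overlap with FDI6. It was 0.621% to 0.677% in siMYBL2 and 0.57% to 0.632% in siControl, and the ranges overlapped (two-sided exact permutation test, p = 0.114, n = 4 each), although the share was higher than in the siControl library of the same number in 4 of 4 pairs, by 0.0408 ± 0.0111 percentage points (SD). In siFOXM1 the share ranged from 0.581% to 0.63% (exact p = 0.886). It was 0.658% to 0.727% in siBoth against 0.6% to 0.662% in siControl_Both, with overlap (exact p = 0.2, n = 3 each), and was higher in 3 of 3 pairs, by 0.0667 ± 0.00961 percentage points. Two-sided exact permutation tests over the pairs gave p = 0.125 in siMYBL2 and 0.25 in siBoth, each the smallest that this number of pairs allows, and 0.75 in siFOXM1. In FDI6 all 3 libraries (0.614% to 0.629%) lay below all 3 control_FDI6 libraries (0.685% to 0.702%), and the exact p of 0.1 is the smallest that 3 against 3 allows. After adjustment over the 4 comparisons the unpaired p-values were 0.229, 0.886, 0.267 and 0.229. With so few libraries none of them could have come under 0.05.

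**Figure D1:**
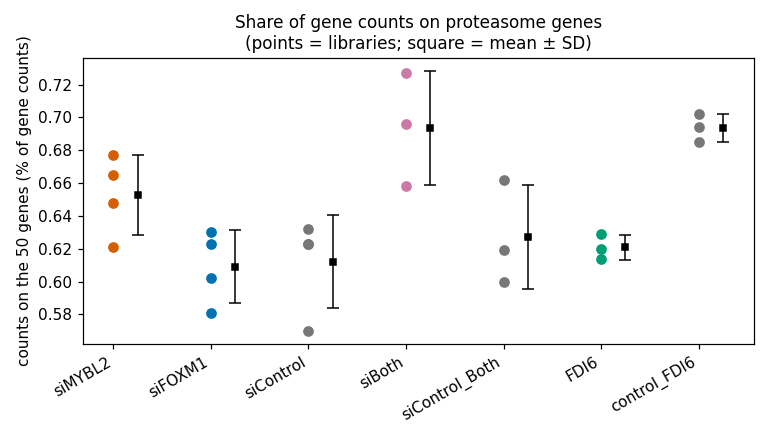
Percent of all gene counts that fell on the 50 proteasome genes, for each library (points) by group, with the mean and SD (bars). The 3 FDI6 libraries sit between 0.614% and 0.629%, below the 3 control_FDI6 libraries at 0.685% to 0.702%, while the knockdown groups overlap with their controls.

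Across the 48 tested members, the changes were small in the knockdowns and mostly downward with FDI6. The median log2 fold change over the members was 0.04 in siMYBL2, -0.05 in siFOXM1, 0.05 in siBoth and -0.19 in FDI6, beside medians over all genes tested of 0.01, 0, 0.02 and -0.01. The fold change was above 0 for 32 of 48 members in siMYBL2, 16 in siFOXM1, 28 in siBoth and 7 in FDI6. A change of more than 1.5-fold was also required in a further count on the main edgeR fits. It called no member in the 3 knockdowns, where 7.90%, 0.667% and 6.44% of all genes tested were called in either direction. The same edgeR count called PSMB9 alone in FDI6, where 13.8% of all genes were called. The study set this limit on DESeq2 results, and with DESeq2 PSMB8 passed it in siBoth.

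**Figure D2:**
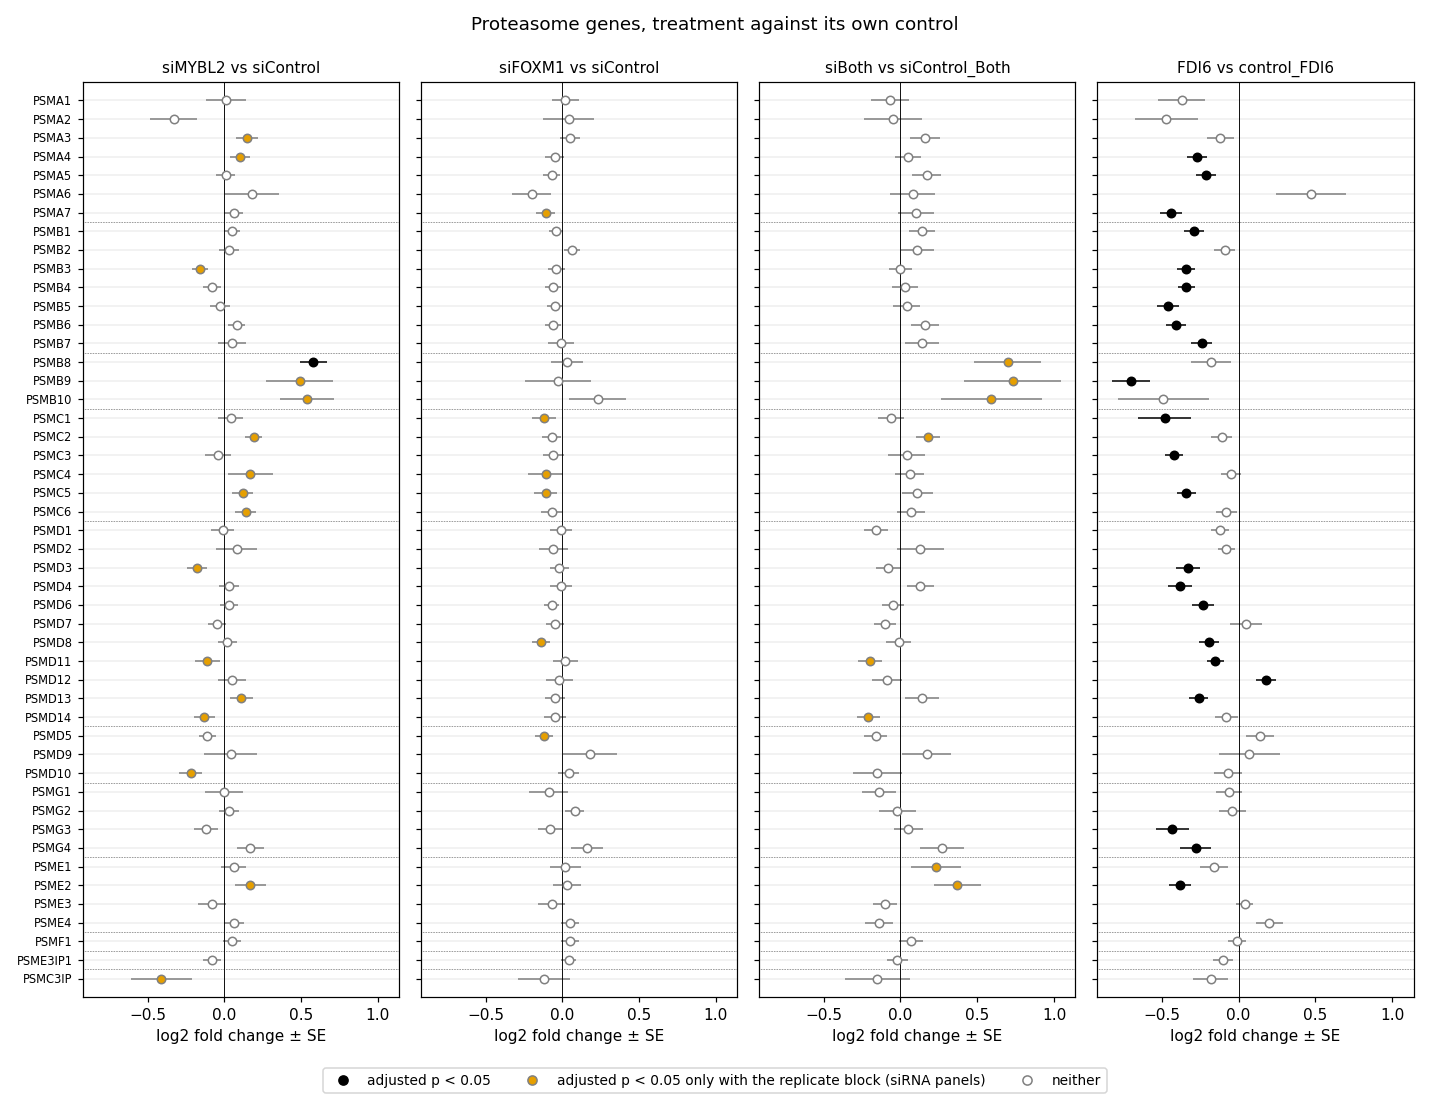
Log2 fold change (x axis, bars ± SE) of each of the 48 tested members (y axis, by role) in siMYBL2, siFOXM1, siBoth and FDI6 against their own controls. Black points passed an adjusted p under 0.05, orange points passed only with the replicate number as a block (shown for the knockdowns), and white points did not pass; the inducible beta genes stand to the right in siMYBL2 and siBoth, and most points lie left of 0 in FDI6.

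In siMYBL2, the inducible beta gene PSMB8, which carries the chymotrypsin-like site of the immunoproteasome, was the member that passed the test. It was higher by 0.58 on the log2 scale (SE 0.088, fold 1.5, adjusted p = 0.00276). The other inducible genes had like fold changes that did not pass, 0.49 for PSMB9 and 0.54 for PSMB10. No member was lower. At an adjusted p under 0.05, 1 of 48 members (2.08%) was higher and 0 were lower, beside 8.53% and 9.53% of all genes tested. At an unadjusted p under 0.05 there were 7 of 48 members, beside 5177 of all 16065 genes tested. DESeq2 called 3 members higher and 2 lower. With upper-quartile scaling in place of TMM, 59.3% of all calls were higher against 47.2%, and 3 members were higher.

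PSMB8 (chr6:32840717-32844679, minus strand, hg38) was at 24.1, 24.2, 27.5 and 24.4 CPM in siMYBL2 replicates 1 to 4 and at 17.5, 15.2, 18.2 and 16.1 CPM in siControl. All 4 siMYBL2 libraries lay above all siControl libraries. PSMB9 (chr6:32844136-32859851, plus strand), which lies beside PSMB8 in the major histocompatibility region and takes the place of the caspase-like subunit PSMB6, was at 8.48, 11.8, 14.9 and 8.50 CPM against 7.79, 7.77, 9.52 and 5.92 CPM. The groups overlapped (SE 0.216, adjusted p = 0.149), although each siMYBL2 library was above the siControl library of the same number, by 0.12, 0.60, 0.65 and 0.52 on the log2 scale. PSMB10 (chr16:67934506-67936864, minus strand), the inducible trypsin-like subunit, ranged from 3.96 to 5.56 CPM against 2.66 to 4.02 CPM, with overlap (SE 0.175, adjusted p = 0.0625). An antisense gene, PSMB8-AS1, and PSMB9 overlap 17.3% of the merged exons of all PSMB8 transcripts on the opposite strand. Since the strand setting of the counting is not given, reads of these genes cannot be told apart there.

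The numbers of the replicates paired the libraries in all 3 knockdowns (same-numbered libraries deviated together), and with the number as a block more members passed. In siMYBL2, 11 members were higher (22.9%) and 6 lower (12.5%), beside 23.6% and 23.1% of all genes, so the share of members was near or below that of all genes. All 3 expressed inducible beta genes were among the 11, with adjusted p of 6.83e-06 for PSMB8, 0.00115 for PSMB9 and 0.00169 for PSMB10. So were 4 of 6 cap ATPases, PSMC2, PSMC4, PSMC5 and PSMC6, at log2 fold changes of 0.12 to 0.19. The alpha genes PSMA3 and PSMA4 (0.15 and 0.10), the cap subunit PSMD13 (0.11) and the activator PSME2 (0.17) made up the rest.

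The 6 lower members with the block came from the cap and its chaperones, with additions. The cap subunits were PSMD3 at -0.19, PSMD11 at -0.11 and PSMD14, the deubiquitinase of the cap, at -0.13. The others were the cap chaperone PSMD10 (-0.22), also known as gankyrin, the beta gene PSMB3 (-0.16) and PSMC3IP (-0.41), which is no proteasome component. No constitutive cutting subunit passed in either direction. The log2 fold changes with the block were -0.04 for PSMB5, 0.08 for PSMB6 and 0.06 for PSMB7. PSMD11 was at 177, 191, 178 and 166 CPM in siMYBL2 against 198, 206, 198 and 168 CPM in siControl. Each siMYBL2 library was below its own number, while the groups overlapped, with an adjusted p of 0.363 without the block and 0.0343 with it. The alpha gene PSMA1 was at 11.3, 14.98, 11.5 and 10.3 CPM against 11.9, 12.8, 11.9 and 11.03 CPM, a log2 fold change of 0.01 (adjusted p = 0.959), with replicate 2 the highest in both groups.

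As a share of the subunit pair, per length, PSMB8 made up 14.1% ± 1.56 of PSMB8 and PSMB5 in siMYBL2 and 9.64% ± 0.855 in siControl. The ranges, 12.5% to 16.3% and 8.51% to 10.5%, did not overlap, and the two-sided exact permutation p of 0.0286 is the smallest that 4 against 4 allows (0.171 adjusted over the 12 shares compared). PSMB10 made up 2.66% ± 0.306 of PSMB10 and PSMB7 against 1.91% ± 0.336, also without overlap (exact p = 0.0286, adjusted 0.171). The PSMB9 share of PSMB9 and PSMB6 was 5.12% ± 1.55 against 3.88% ± 0.693 (exact p = 0.2). None of these shares could pass after adjustment over the 12, even at the smallest p-values that these numbers of libraries allow, so the adjusted values decide nothing.

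The promoters of the inducible genes are shown because all 5 were higher with the replicate block in siBoth, as described further on. The sequences are from RefSeq on GRCh38.p14. Each runs 5′ to 3′ on the gene's strand from 70 bases before the transcription start to 50 bases after it, and capitals mark the core of the interferon response element (GAAA, any 2 bases, then GAAA) on either strand.
PSMB8 (chr6:32843998-32844117, minus strand): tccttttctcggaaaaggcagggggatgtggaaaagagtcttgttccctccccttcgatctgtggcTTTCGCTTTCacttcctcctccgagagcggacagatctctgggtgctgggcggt
PSMB9 (chr6:32854122-32854241, plus strand): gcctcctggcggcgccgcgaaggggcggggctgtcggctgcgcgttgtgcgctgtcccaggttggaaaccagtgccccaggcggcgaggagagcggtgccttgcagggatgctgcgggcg
PSMB10 (chr16:67936801-67936920, minus strand): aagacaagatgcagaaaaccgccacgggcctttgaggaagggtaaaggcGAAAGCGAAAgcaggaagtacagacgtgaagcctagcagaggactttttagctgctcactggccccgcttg
PSME1 (chr14:24136124-24136243, plus strand): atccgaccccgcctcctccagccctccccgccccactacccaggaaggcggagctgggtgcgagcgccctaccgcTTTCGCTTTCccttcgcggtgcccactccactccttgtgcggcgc
PSME2 (chr14:24146561-24146680, minus strand): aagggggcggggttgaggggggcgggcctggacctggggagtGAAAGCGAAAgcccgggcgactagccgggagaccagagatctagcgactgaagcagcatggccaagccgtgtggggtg

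PSMB8, PSMB10, PSME1 and PSME2 each held the core close to the start, at 4, 21 and 28 bases before it for PSMB8, PSMB10 and PSME2 and 5 bases after it for PSME1. PSMB9 held none in its window of 300 bases, and neither did the window of the other PSMB8 start. Over all members, 7 of 55 promoters (12.7%) held the core, against 3.57% of all 35116 promoters of the same length. The others were those of PSMA4, PSMB4 and PSMG4. A match is a description of the letters and not evidence of a bound factor.

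**Figure D3:**
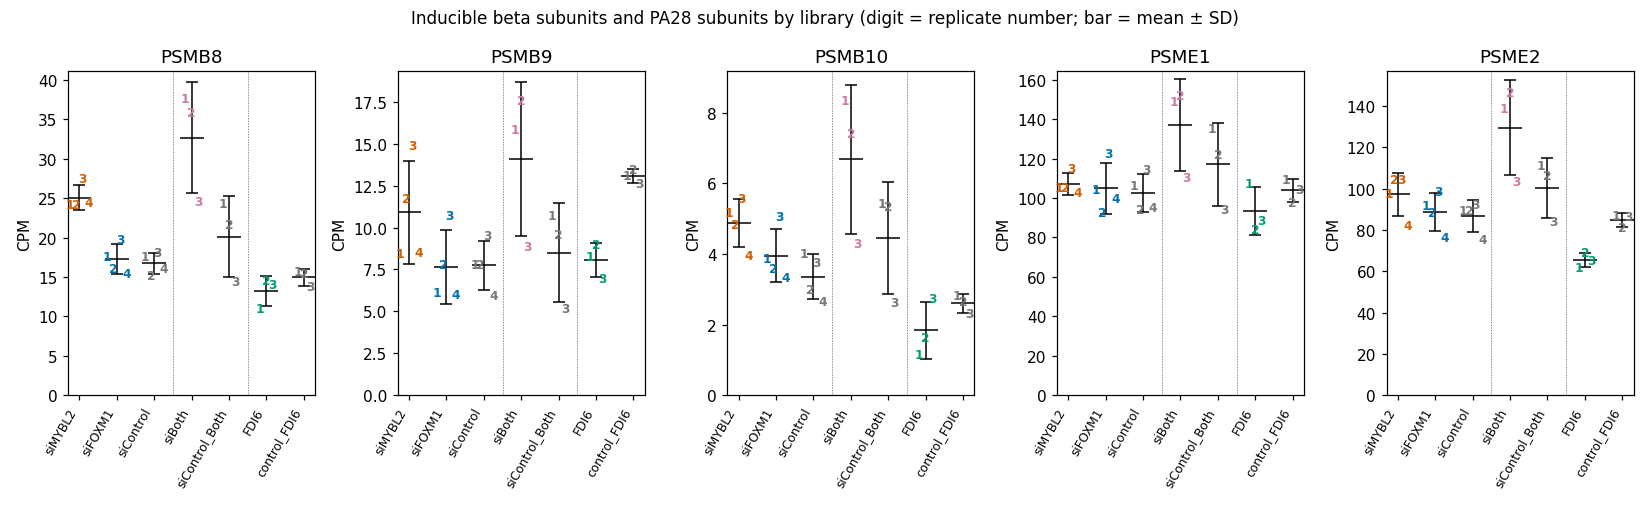
Level in CPM (y axis) of PSMB8, PSMB9, PSMB10, PSME1 and PSME2 in each library by group (x axis); the digit of a point is its replicate number, and bars give the mean ± SD. PSMB8 is above all siControl libraries in the 4 siMYBL2 libraries, and in siBoth and siControl_Both replicate 3 is the lowest of its group for all 5 genes.

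In siFOXM1, no proteasome gene passed the test in either direction. The log2 fold changes ran from -0.20 for PSMA6 to 0.23 for PSMB10. By edgeR 0 of 48 were higher and 0 lower, beside 0.277% and 1.09% of all genes tested, and DESeq2 also called 0. An unadjusted p under 0.05 was found for 1 of 48 members, beside 2060 of all 15892 genes tested. The inducible beta genes overlapped with siControl. PSMB8 was at 17.6, 16.1, 19.7 and 15.4 CPM, and PSMB9 at 6.10, 7.81, 10.7 and 6.001 CPM, with log2 fold changes of 0.03 and -0.03. PSMB10, which had the highest fold change of all members, was at 3.86, 3.58, 5.05 and 3.33 CPM, above the siControl library of the same number in 3 of 4 pairs (log2 fold change 0.23, adjusted p = 0.709, and adjusted p = 0.196 with the block). PSMA1 stood at 12.2, 12.6, 12.3 and 11.4 CPM and PSMD11 at 195, 212, 200 and 180 CPM, each with a log2 fold change of 0.02 and overlapping with siControl.

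With the replicate block, 6 members were lower (12.5%) and 0 higher, beside 14.0% and 12.3% of all genes. They were the alpha gene PSMA7 (-0.11), the cap ATPases PSMC1, PSMC4 and PSMC5 (-0.12, -0.11 and -0.11), the cap subunit PSMD8 (-0.14) and the cap chaperone PSMD5 (-0.12). Each was below its numbered siControl library in all 4 pairs, with adjusted p from 0.000978 to 0.021. PSMC4 and PSMC5 were among the members higher with the block in siMYBL2, which used the same siControl libraries. The siMYBL2 and siFOXM1 effects were not tested against each other.

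In siBoth, no proteasome gene passed the test without the block, while the inducible beta genes had the largest fold changes of all members. The log2 fold change was 0.70 for PSMB8 (SE 0.218, adjusted p = 0.0723), 0.73 for PSMB9 (SE 0.316, adjusted p = 0.166) and 0.59 for PSMB10 (SE 0.329, adjusted p = 0.27). By edgeR 0 of 48 members were higher and 0 lower, beside 4.55% and 7.77% of all genes. At an unadjusted p under 0.05 there were 5 of 48 members, beside 4683 of all 15812 genes tested, and DESeq2 called 1 member. Of all calls over genes, 36.9% were higher, and 56.3% with upper-quartile scaling.

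PSMB8 was at 37.6, 35.8 and 24.6 CPM in siBoth and at 24.3, 21.7 and 14.4 CPM in siControl_Both. The siBoth libraries all lay above the controls, by a narrow margin, and replicate 3 was the lowest in each group. PSMB9 was at 15.8, 17.6 and 8.87 CPM against 10.7, 9.60 and 5.18 CPM. The groups overlapped through replicate 3, and the differences within pairs were 0.56, 0.87 and 0.78 on the log2 scale. PSMB10 ranged from 4.31 to 8.35 CPM against 2.61 to 5.42 CPM, with overlap and pair differences of 0.62, 0.47 and 0.72. The PSMB8 share of PSMB8 and PSMB5 was 12% ± 2.32 against 7.99% ± 2.12 (exact permutation p = 0.2, n = 3 each), and higher in 3 of 3 pairs by 4 ± 0.336 percentage points (exact permutation p over the pairs 0.25, the smallest for 3 pairs).

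With the replicate block, 6 members of siBoth were higher (12.5%) and 2 lower (4.17%), beside 16.3% and 18.5% of all genes. The higher members were PSMB8 (adjusted p = 1.41e-05), PSMB9 (0.000202), PSMB10 (0.00569), both genes of the interferon-inducible activator ring, PSME2 (0.36, adjusted p = 0.000687) and PSME1 (0.23, adjusted p = 0.0155), and the cap ATPase PSMC2 (0.18, adjusted p = 0.0458). The lower members were the cap subunits PSMD11 (-0.20, adjusted p = 0.0385) and PSMD14 (-0.21, adjusted p = 0.0261). With the GC and length correction added to the block, 11 members were higher (22.9%) and 2 lower (4.17%), beside 18.2% and 18.0% of all genes, and PSME1 and PSMD11 no longer passed. The siBoth libraries stood apart in pairs that were not aligned (9.09% to 10.93%, against 7.68% to 7.92% in siControl_Both), and the median log2 fold change of all genes was -0.08 below 48.3% GC content of the transcript and 0.12 at or above it. The correction alone took PSMB8 to 0.56 and PSME1 from 0.23 to 0.13. The part of unaligned pairs in the result was not tested. PSMD11 was at 234, 212 and 217 CPM in siBoth against 251, 262 and 247 CPM in siControl_Both, without overlap. PSMA1 was at 16.8, 14.2 and 18.4 CPM against 17.7, 17.4 and 16.7 CPM, with overlap (log2 fold change -0.07, adjusted p = 0.744).

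The siBoth and siMYBL2 experiments share no library. Of the members higher with the block, 5 were in both lists (PSMB8, PSMB9, PSMB10, PSMC2 and PSME2), which is 45.5% of the 11 in siMYBL2 and 83.3% of the 6 in siBoth. Over all genes tested in both experiments, 48.2% and 70.1% of the higher genes and 57.1% and 72.1% of the lower genes of siMYBL2 and siBoth were in both lists. Of the lower members, PSMD11 and PSMD14 were in both, that is 2 of 6 and 2 of 2. The overlap of the members was not tested against that of all genes. PSME1 differed between the lists, with a log2 fold change of 0.07 in siMYBL2 (adjusted p = 0.236 with the block) and 0.23 in siBoth, and the difference between the experiments was not tested.

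A marker of monocytes and genes that control the inducible subunits moved in the same experiments. CD14 was at 11.8 ± 2.98 CPM in siMYBL2 against 5.67 ± 1.53 CPM (n = 4, log2 fold change 1.06, adjusted p = 0.0146) and at 11.3 ± 1.05 CPM in siBoth against 5.35 ± 1.97 CPM (n = 3, 1.08, adjusted p = 0.0254). The summed level of the 5 immune markers was 8.42 to 15.6 CPM in siMYBL2 against 4.25 to 7.63 CPM, and 10.4 to 12.5 CPM in siBoth against 4.34 to 7.85 CPM. The leukocyte gene PTPRC stayed at or under 0.2317 CPM and LYZ at or under 0.4616 CPM in every library. IRF1, the transcription factor that drives PSMB8 and PSMB9 after interferon, had a log2 fold change of 0.36 in siMYBL2 (adjusted p = 0.217, 0.000724 with the block) and 0.65 in siBoth (adjusted p = 0.0851, 2.61e-05 with the block). NLRC5, which activates the genes of antigen presentation, had 0.25 and 0.47 (adjusted p = 0.0216 and 0.00324 with the block, 0.402 and 0.259 without). The part of these genes in the result was not tested.

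With FDI6, transcript levels were lower across the barrel and the cap. Of 48 members, 22 were lower (45.8%) and 1 was higher (2.08%), beside 17.9% lower and 21.0% higher among all genes tested. The lower members included 6 of 7 constitutive beta genes, 3 of 7 alpha genes, 3 of 6 cap ATPases, 6 of 11 other cap subunits, 2 of 4 barrel chaperones, 1 of 4 activators and 1 of 3 inducible beta genes. None of the 3 cap chaperones and not the inhibitor PSMF1 passed. Median log2 fold changes were -0.34 for the constitutive beta genes, -0.27 for the alpha genes, -0.23 for the ATPases and -0.15 for the other cap subunits.

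The largest falls past the test were those of PSMB9, PSMC1 and PSMB5, and the size of the PSMC1 fall depended on FDI6 replicate 1. PSMB9 was at 8.25, 8.97 and 6.96 CPM in FDI6 against 13.1, 13.5 and 12.6 CPM in control_FDI6, with a log2 fold change of -0.70 (SE 0.126, adjusted p = 0.00124). No FDI6 library reached the lowest control. PSMB5, the constitutive chymotrypsin-like subunit (chr14:23016543-23035230, minus strand), was at 158, 167 and 183 CPM against 244, 227 and 226 CPM, also without overlap (-0.46, SE 0.0711, adjusted p = 0.000487). PSMC1, a cap ATPase, was at 33.6, 58.7 and 62.3 CPM against 73.9, 69.3 and 72.2 CPM. All FDI6 libraries were lower and replicate 1 stood far below the others (-0.48, SE 0.172, adjusted p = 0.0454, and 0.154 with DESeq2). Without that library the log2 fold change of PSMC1 was -0.25 (adjusted p = 0.00221). PSMC1 missed the threshold without control_FDI6 replicate 1, 2 or 3 (adjusted p = 0.129, 0.0952 and 0.108). PSMC1 has 13 annotated pseudogenes, and a gene on the opposite strand, NRDE2, overlaps 76.1% of the merged exons of all its transcripts, so its counts are uncertain.

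PSMD12, a cap subunit, was the member that was higher. It was at 169, 157 and 151 CPM in FDI6 and 142, 138 and 141 CPM in control_FDI6, without overlap (log2 fold change 0.18, SE 0.0645, adjusted p = 0.0461), and it did not pass with DESeq2, RLE or upper-quartile scaling, without the filter or without any of the 3 control_FDI6 libraries (adjusted p = 0.053 to 0.165). PSMA7 (-0.44), PSMG3 (-0.43), PSMC3 (-0.42) and PSMB6 (-0.41) were lower by about as much as PSMB5, with adjusted p from 0.000268 to 0.00871. PSMD11 was at 244, 241 and 243 CPM against 271, 263 and 273 CPM, a fall of 0.15 on the log2 scale that just passed (adjusted p = 0.0498, and 0.0826 with DESeq2). PSMA1 was at 7.22, 7.40 and 9.58 CPM against 11.9, 10.4 and 9.05 CPM, with overlap (-0.37, adjusted p = 0.0767). PSMB8 and PSMB10 overlapped with their controls (-0.18 and -0.49, adjusted p = 0.281 and 0.216). The PSMB8 share of PSMB8 and PSMB5 was 6.74% ± 0.727 against 5.65% ± 0.307 (exact permutation p = 0.1, the smallest for 3 against 3).

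The FDI6 fold changes moved with the GC content of the transcript over all genes, and the proteasome members followed this trend in part. The median log2 fold change over all genes fell from 0.29 at 35 to 40% GC to -0.29 at 60 to 65% GC. Members at or above their median GC content of 48.3% had 17 of 24 lower (median -0.34), and those below it had 5 of 24 lower and 1 higher (median -0.09). Among all genes, the medians at or above and below that content were -0.19 and 0.17. At or above it, 2188 of 7693 genes were lower and 664 higher, and below it 542 of 7483 were lower and 2531 higher. PSMD12 has a GC content of 37.5%, and PSMB5 one of 53.0%.

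With a correction for GC content and length, 19 members were lower (39.6%) and 0 higher, beside 16.7% and 14.9% of all genes. The median over the members was then -0.12, and -0.10 and -0.13 at or above and below 48.3% GC. Of the 23 calls, 13 were kept. PSMB3, PSMB4, PSMB6, PSMB7, PSMD3, PSMD8, PSMD12, PSMD13, PSMG3 and PSMG4 were lost, and PSMB2, PSMC2, PSMC6, PSMD1, PSME3IP1 and PSMF1 joined as lower. PSMB9 stood at -0.48 (adjusted p = 0.00744) and PSMB5 at -0.23 (0.00203). PSMD12 turned to -0.13 (0.0558), and the alpha genes PSMA4 and PSMA5, with GC contents of 41.9% and 37.9%, came to -0.49 and -0.48, from -0.27 and -0.21. The medians by role became -0.37 for the alpha genes, -0.22 for the ATPases, -0.12 for the constitutive beta genes and -0.07 for the inducible beta genes, so the order of the roles depended on the correction.

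**Figure D4:**
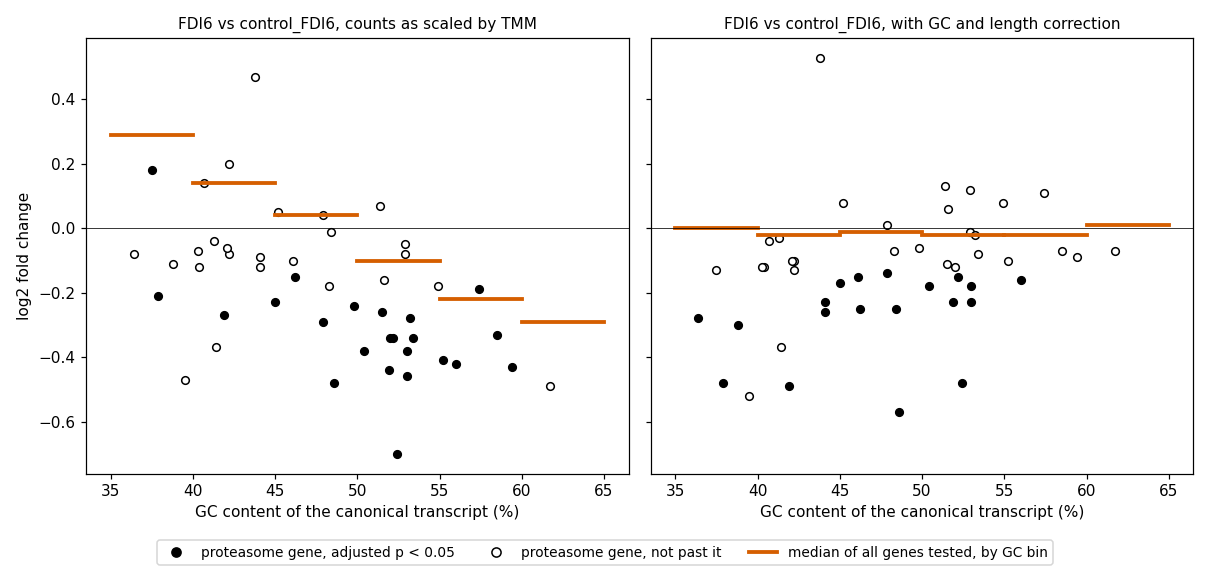
Log2 fold change of FDI6 over control_FDI6 (y axis) against the GC content of the canonical transcript in percent (x axis) for the 48 members, with TMM scaling alone (left) and with the GC and length correction (right); the orange line is the median of all genes tested in bins of 5 GC points. The line falls from 0.29 to -0.29 on the left and lies at about 0 on the right, where most members are still below it.

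Of the 22 lower members, 8 were lower in each of the 15 fits tried, which cover the tools, scalings, filters, corrections and left-out libraries. These were PSMA4, PSMA7, PSMB5, PSMB9, PSMC3, PSMC5, PSMD4 and PSME2. PSMC5 was at -0.34 (adjusted p = 0.00116), and -0.15 (0.0208) with the correction. PSME2 was at 62.1, 68.9 and 65.4 CPM in FDI6 against 87.2, 81.1 and 86.5 CPM, without overlap (-0.38, adjusted p = 0.00187). The number of lower members was 14 without control_FDI6 replicate 1 and 25 without FDI6 replicate 1. The shares of all genes called in the fits with a library left out are not given here. Whether these counts are particular to the members was therefore not tested.

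Other measures of the FDI6 libraries differed from their controls as well. Summed levels of the 5 epithelial markers were 5962 to 6878 CPM in FDI6 against 9758 to 10535 CPM, and all 5 were lower, among them KRT8 (-0.81) and CDH1 (-1.49). Pairs that fell on no annotated feature made up 4.86% to 4.93% against 4% to 4.37% in the controls, and ambiguous pairs 9.78% to 10.47% against 10.74% to 11.2%. The part of these differences in the result was not tested.

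FDI-6 was used as an inhibitor of FOXM1, so its effect on the members was set against that of siFOXM1 in a single edgeR fit of the 4 groups. The FDI6 effect was lower than the siFOXM1 effect for 11 of 48 members (22.9%) and higher for 0, beside 8.64% and 12.3% of all genes tested. Over all genes 58.7% of the calls were higher, and 47.9% with upper-quartile scaling. The 11 were PSMA7, PSMB1, PSMB3, PSMB4, PSMB5, PSMB6, PSMC3, PSMD3, PSMD4, PSME2 and PSMG4, so 5 of 7 constitutive beta genes were among them. The agent, the control group and the depth of the libraries differ between the experiments, and their parts cannot be told apart.

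PSMG4, a chaperone of barrel assembly, was at 16.4, 19.3 and 18.0 CPM in FDI6 against 21.7, 22.7 and 20.9 CPM in control_FDI6, and at 12.9 ± 1.43 CPM in siFOXM1 against 11.5 ± 0.735 CPM in siControl. The difference of the log2 effects was -0.45 (SE 0.145, adjusted p = 0.0399). For PSMB5, at 141 ± 5.07 CPM in siFOXM1 against 146 ± 4.19 CPM, the difference was -0.41 (SE 0.0876, adjusted p = 0.00475). For PSME2 it was -0.41 (SE 0.125, adjusted p = 0.0307). The calls of PSMG4 and PSME2 were lost when any of several libraries was left out, for example FDI6 replicate 1 (adjusted p = 0.0918 and 0.0742). PSMB9 had a difference of -0.68 that did not pass (adjusted p = 0.0991), PSMA1 one of -0.40 (0.118) and PSMD11 one of -0.18 (0.24). With the replicate number as a block in both experiments, although it did not pair the FDI6 libraries, 18 members were lower and 2 higher, beside 18.3% and 20.0% of all genes, and PSMB9 and PSMD11 passed (adjusted p = 0.00288 and 0.036).

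None of these 11 calls was kept with the GC and length correction. It called 5 members lower (10.4%) and 1 higher (2.08%), beside 5.61% and 6.26% of all genes. The lower members were PSMA4, PSMA5, PSMB2, PSMC6 and PSMF1, and PSMA6 was higher. The median over the members was -0.17, and -0.12 with the correction, beside -0.03 and -0.02 over all genes. PSMB5 moved to -0.17 (adjusted p = 0.13), PSME2 to -0.20 (0.287) and PSMG4 to -0.17 (0.459).

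**Figure D5:**
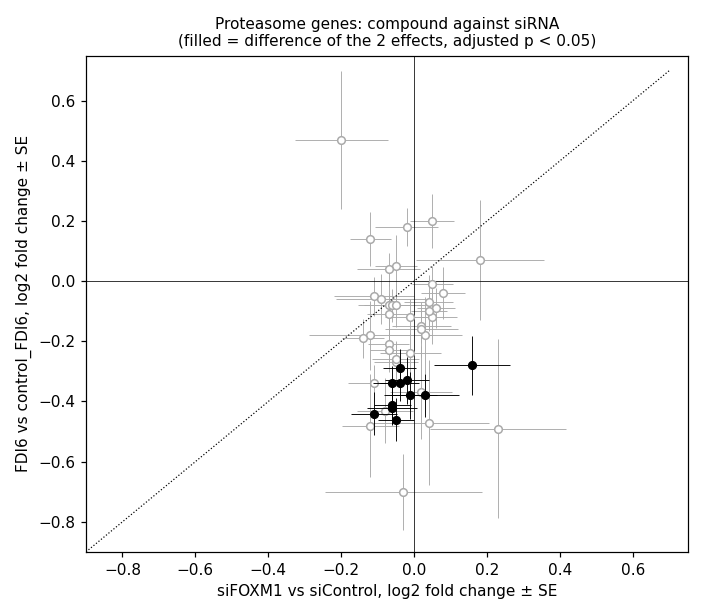
Log2 fold change in FDI6 (y axis) against that in siFOXM1 (x axis) for each of the 48 members, with SE bars; filled points are the 11 members whose difference between the experiments passed an adjusted p under 0.05. The points spread from -0.70 to 0.47 on the y axis and from -0.20 to 0.23 on the x axis, and the filled points lie below the line of equal change.

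Genes that work with the proteasome or control it were followed as lists chosen from general knowledge. In siMYBL2, 2 of 11 proteasome-associated genes, 1 of 10 genes that control proteasome transcription and 1 of 9 unfoldase and shuttle genes were lower, and none was higher, beside 9.53% lower and 8.53% higher of all genes. NFE2L1, the transcription factor that raises proteasome genes when degradation falls short, was at 309 ± 16.6 CPM against 382 ± 29.6 CPM (log2 fold change -0.30, SE 0.0721, adjusted p = 0.0198). UBQLN4, which shuttles ubiquitinated proteins to the cap, was at 81.1 ± 3.68 CPM against 112 ± 6.09 CPM (-0.46, adjusted p = 0.00198). The groups did not overlap for either gene. None of the 6 peptide transport and trimming genes passed by edgeR, with 1 at an unadjusted p under 0.05, beside 5177 of all 16065 genes. With the replicate block, 1 associated gene was higher and 6 lower, 5 control genes were higher and 4 lower, 1 shuttle gene was higher and 3 lower, and 2 transport genes were higher and 1 lower, beside 23.6% higher and 23.1% lower of all genes.

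No gene of these lists passed in siFOXM1 by edgeR. At an unadjusted p under 0.05 there were 4 control genes, 2 associated genes and 1 transport gene, beside 2060 of all 15892 genes. With the replicate block 3 control genes were higher and 3 lower, 3 associated genes lower, 1 shuttle gene higher and 2 lower, and 1 transport gene higher and 1 lower, beside 12.3% higher and 14.0% lower of all genes. In siBoth, 2 of 11 associated genes and 1 of 9 shuttle genes were lower and none was higher, beside 7.77% lower and 4.55% higher of all genes. The lower genes were led by ECPAS, a scaffold that binds the particle (-0.36, SE 0.0818, adjusted p = 0.0273), and the shuttle RAD23B (-0.32, adjusted p = 0.0372). These calls were lost with the GC and length correction (adjusted p = 0.11 and 0.098). The groups did not overlap for either. With the replicate block, 5 associated genes were lower, 3 control genes higher and 2 lower, 1 shuttle gene higher and 2 lower, and 1 transport gene higher, beside 16.3% higher and 18.5% lower of all genes.

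In FDI6, the lists split. SQSTM1, the autophagy receptor for ubiquitinated proteins, was at 928, 1067 and 1131 CPM against 652, 653 and 628 CPM (log2 fold change 0.69, SE 0.0725, adjusted p = 3.15e-05). MAFF, a small partner of the NFE2L factors, was at 13.5, 19.3 and 20.7 CPM against 6.02, 8.35 and 6.90 CPM (1.32, SE 0.176, adjusted p = 0.000165). Its relative MAFK was at 40.0, 86.6 and 98.1 CPM against 126, 146 and 114 CPM (-0.78, adjusted p = 0.0228), and SEM1, a small cap subunit outside the symbol rule, at 32.0, 51.5 and 54.9 CPM against 87.9, 74.3 and 78.6 CPM (-0.80, SE 0.158, adjusted p = 0.00223). None of these genes overlapped between the groups, and replicate 1 was the lowest FDI6 library for each. All 4 calls were kept with the correction.

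By count, 3 of 10 control genes were higher with FDI6 and 1 was lower, 2 of 9 shuttle genes were higher and 1 lower, and 2 of 11 associated genes were higher and 3 lower, beside 21.0% higher and 17.9% lower of all genes. Of the 6 peptide transport and trimming genes, TAP2, B2M and ERAP1, which move, present and trim peptides made by the proteasome, were higher and none was lower (list median 0.29, beside -0.01 over all genes). NFE2L1 itself had a log2 fold change of 0.03 (adjusted p = 0.783). The difference between the FDI6 and siFOXM1 effects passed for MAFF (1.53, adjusted p = 0.00422), SQSTM1 (0.85, 0.0221), MAFK (-1.17, 0.0225) and SEM1 (-0.58, 0.0419).

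The promoters of the members were searched on both strands for motifs of these regulators. Of the members, 44 had at least 1 promoter in the RefSeq table, 55 in all. The core of the antioxidant response element (TGACNNNGC), which NFE2L factors and their MAF partners bind, was in 15 of 55 promoters (27.3%) and in 13.3% of all 35116. The core can overlap other motifs in the same window. As an example from a gene that was lower in all FDI6 fits, one of the 2 PSMC5 promoters in the table is shown over the same span around its start, with this core, read on the opposite strand, in capitals 57 bases before the start.
PSMC5 (chr17:63827651-63827770, plus strand): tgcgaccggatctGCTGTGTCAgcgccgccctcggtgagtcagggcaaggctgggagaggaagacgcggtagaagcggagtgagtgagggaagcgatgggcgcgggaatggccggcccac

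The window of the other PSMC5 start (chr17:63827181-63827480) held no match. The core was in a promoter of 6 of the 16 members that were lower with FDI6 and had a promoter in the table. Among all 44 members with a promoter there, 15 held it, which is a like share. The CCAAT box was in 43.6% of the members' promoters against 34.6% of all, the gamma-activated site (TTCNNNGAA) in 14.5% against 7.66%, and the heat shock element core (GAANNTTC) in 3.64% against 6.77%. The promoters with the heat shock core were those of PSMC3IP alone, which is no proteasome component. The cell cycle gene homology region (TTTGAA), the element through which MYBL2 and FOXM1 complexes reach many mitotic genes, was in 16.4% against 15.2%.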

How the data were processed

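RNA was measured by polyA-selected, paired-end RNA-seq of 24 A549 libraries. The authors trimmed the reads with Trim Galore, aligned them to hg38 with STAR and counted read pairs on GENCODE V29 genes with HTSeq (tool versions and strand setting not given in the sources used here). The deposited values are raw counts per gene, not normalized by the authors, who tested them with DESeq2. Entries that name no gene held 18.47% to 26.17% of pairs and were left out, as were pairs that fit several genes. Of the gene identifiers, 58207 were found in GENCODE V44, which gave positions, transcripts, GC content and biotypes, and 514 were not.

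The counts were tested with edgeR 4.0.16 in R 4.3.3. Each treatment was fitted with its own control without a block, after TMM scaling and filterByExpr, and quasi-likelihood p-values were adjusted by Benjamini-Hochberg over all genes tested. A call is an adjusted p under 0.05. The study's fold change limit of 1.5 is given beside it. The SE is the log2 fold change divided by the square root of F. Levels are CPM with TMM-scaled library sizes over all 24 libraries. The FDI6 and siFOXM1 effects were compared by an interaction term. Shares were compared by two-sided exact permutation tests, over libraries and, in the knockdowns, also over pairs of the same number by sign flips.

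The siMYBL2 and siFOXM1 comparisons share the siControl libraries. Pairing was taken from the replicate numbers in the labels and checked by the correlation of deviations from group means, which for same-numbered libraries was 0.57 to 0.874 in siMYBL2, 0.537 to 0.905 in siFOXM1, 0.552 to 0.687 in siBoth and -0.286 to 0.159 in FDI6. The numbers therefore pair the knockdown libraries. No library repeated another, with a chi-square per gene of at least 4.08 between libraries of a group.

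Other settings tried were DESeq2 1.42.0, scaling by RLE or the upper quartile, other filters, the replicate block and each library left out. Removal of smooth trends on GC content and transcript length in each library (5 degrees of freedom each) was added after seeing the data. The members, roles and gene lists were chosen with earlier results of these data known. Every member could be named. Values by library are given for PSMA1, PSMB9 and PSMD11 and, in each comparison, for up to 3 members per direction with the largest called changes and a mean of at least 100 counts, and genes of the lists follow the same rule with 2 per direction. PSMB8 and PSMB10 in siFOXM1, siBoth and FDI6, PSMA7, PSMB6, PSMC3, PSMC5 and PSMG3, the CD14, IRF1 and NLRC5 values and the printed promoters were chosen after their values were seen. The tests were tried on simulated data with known changes. PSMD4, PSMB6, PSMB1, PSMG3, PSMA7 and PSMB7 had no entry in the promoter table. Some genes of the lists are not reported here.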

Additional observations from a re-analysis of the deposited data

Results flagged for a closer look

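In 42 sets of 4 libraries (14 values in each of 3 groups), 3 had a library whose distance from the next, as a share of the range of the group, exceeded the 95% limit of Dixon's test for 4 values. Chance exceeds it in about 1 of 20 groups. PSMB8 in siMYBL2 was at 27.46 CPM in replicate 3 and between 24.1 and 24.4 CPM in the others (ratio 0.925), and without that library its log2 fold change was 0.53 (adjusted p = 0.00911). PSME2 in siControl was at 75.31 CPM in replicate 4 and between 89.6 and 92.1 CPM in the others (ratio 0.852). The share of gene counts on the proteasome genes was 0.57% in siControl replicate 4 and 0.623% to 0.632% in the others (ratio 0.855).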

How the results depend on the processing

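PSMB8 passed in siMYBL2 in all 17 fits (log2 fold change 0.53 to 0.63), and 8 of the 22 lower members of FDI6 in all 15. In siMYBL2, DESeq2 called 3 members higher and 2 lower, upper-quartile scaling 3 higher (2 with the fold limit), the replicate block 11 and 6 (1 with the fold limit), the GC correction 2 and 2, and the block with that correction 11 and 6. In siFOXM1, the block called 6 lower, and with the correction 1 higher and 7 lower. In siBoth, DESeq2 and upper-quartile scaling called 1 higher each (1 with the fold limit), no filter 3 (2), the block 6 higher and 2 lower (3), and the block with the correction 11 and 2 (1). In FDI6, 0 members were higher with DESeq2, RLE or upper-quartile scaling, no filter, the block, the correction or both, 17 were lower with the block, and 0 passed the fold limit with the correction. For FDI6 against siFOXM1, the block gave 2 higher and 18 lower, the correction 1 and 5, and both 3 and 18. The replicate numbers did not pair the FDI6 libraries.

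With 1 library left out, 1 to 2 members were higher and 0 lower in siMYBL2 (0 to 2 with the fold limit), 0 in siFOXM1, 0 to 2 higher in siBoth (0 to 1 with the fold limit), 0 to 2 higher and 14 to 25 lower in FDI6 (1 to 3 with the fold limit), and 0 to 1 higher and 5 to 12 lower for FDI6 against siFOXM1, where the 5 came without control_FDI6 replicate 1, 6 without FDI6 replicate 1 and 7 without control_FDI6 replicate 2 or 3. The median over the members in siMYBL2 ranged from -0.03 to 0.07. These counts stand without the shares of all genes called in the same fits, so they do not single out the members.

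Some signs turned. In siMYBL2, PSMA1 came to -0.12 without siMYBL2 replicate 2 and -0.04 without siControl replicate 4. In siFOXM1, PSMB9 came to 0.07, 0.08 and 0.09 without siFOXM1 replicate 1 or 4 or siControl replicate 3, PSMD11 to -0.01 and -0.04 without siFOXM1 replicate 2 or siControl replicate 4, and PSMA1 to -0.02 without the latter, where leaving out a library gave ranges of -0.23 to 0.09 for PSMB9 and -0.02 to 0.06 for PSMA1. PSMA1 in siBoth came to 0.01 with upper-quartile scaling and ranged from -0.17 to 0.02 without a library, the highest without siBoth replicate 2. PSMD12 in FDI6 came to -0.13 with the GC correction, alone or with the block. None of these values but that of PSMD12 had passed the test. Of the other values of named members, 290 kept their side of the threshold, 41 lost it and 15 passed it under an alternative. The cause was not tested. PSMA2, PSMA6, PSMB10 and PSMD9, with group means of 1.84 to 10.3 CPM, rest on few counts.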
